A study of Mus musculus with 9 samples.

Results

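The RNA exosome subunits are the genes Exosc1 to Exosc10, taken by symbol from a table of 38674 genes measured in mouse testis. Of the 10 genes listed, 9 were analysed, and Exosc6 was not analysed here. The complex was chosen by 1 measured value, the level of Exosc1, which was already known to be lower in Pfn3-/- (KO) than in Pfn3+/+ (WT) animals of these same data, and the other subunits were then added by name. The KO against WT difference of Exosc1 is therefore given below as a description with no test, and the question addressed is whether Exosc1 moved alone or with its complex.

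The samples were testes, freed of the tunica albuginea, of 9 male C57BL/6 mice, 3 WT, 3 Pfn3+/- (Het) and 3 KO. Pfn3, a testis member of the profilins, which bind actin, had been disrupted by CRISPR/Cas9 in zygotes, so the deletion is carried by every cell type of the testis. The labels name neither the animals' ages nor which of the established deletion lines was used. QuantSeq 3' libraries were made, whose reads start from the polyadenylated ends of transcripts, and the deposited table gives counts per gene scaled by a size factor for each animal (normalized counts). Because each transcript yields reads from its end only, values were not divided by transcript length, and levels are compared between animals and not between genes.

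The libraries held 3375546 to 4287335 reads counted on genes, and the limit of detection, set at 3 reads, was 2.58 to 3.71 normalized counts. Pfn3 itself had normalized counts of 373 to 592 (WT), 136 to 339 (Het) and 74.7 to 279 (KO), with the KO animals all under the lowest WT value, but none near 0. Such a separation of KO from WT was found in 19.9% of genes tested, and KO and Het animals overlapped. The log2 fold change of Pfn3 in KO against WT was −1.41 (limma adjusted p = 0.610). Markers fixed for haploid germ cells were abundant, and 4 of 5 epididymis markers were at 0 in all animals. WT replicate 1 stood apart from the other libraries. Among 14865 genes that reached 10 normalized counts in 3 or more animals, 695 had a level in WT replicate 1 that lay alone, by a gap of over 4-fold, below the other 8 animals. For Het replicate 1 such genes numbered 265, for KO replicate 2 there were 102, and for the other 6 animals 14 to 76. WT replicate 1 also had the fewest reads. The KO against WT values of the subunits are therefore also given without it.

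The RNA exosome is the main machine that degrades and trims RNA from its 3' end, in the nucleus and in the cytoplasm. Its core is a barrel without activity of its own. A ring of proteins related to RNase PH (EXOSC4 to EXOSC9) forms the body, and a cap of RNA-binding proteins (EXOSC1, also named CSL4, EXOSC2, or RRP4, and EXOSC3, or RRP40) sits where RNA enters. The nucleases DIS3 or DIS3L and, in the nucleus, EXOSC10 (RRP6) do the cutting, and helicase complexes such as TRAMP, NEXT, PAXT and SKI feed RNA to the barrel. The complex processes rRNA, snoRNA and snRNA, removes faulty transcripts, and takes part in mRNA turnover. In the male germ line EXOSC10 is required for normal spermatogenesis.

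In the annotation (GENCODE M21, GRCm38), Exosc1 (ENSMUSG00000034321) lies on the minus strand of chromosome 19 from 41922292 to 41933423. Its start is 57 bases from that of Zdhhc16, a palmitoyltransferase gene on the opposite strand. Of the 10 subunit genes, 6 (Exosc1, Exosc3, Exosc4, Exosc5, Exosc7 and Exosc8) had the start of a protein-coding gene on the opposite strand within 1000 bases, against 10.9% of 21938 protein-coding genes. The promoter windows of 8 of the 10 genes were matched in RefSeq (GRCm38.p6). The windows of the 3 subunits whose levels differed most between animals (Exosc1, Exosc5 and Exosc7) and of Exosc8, which differed least, are shown to give the sequence at the shared starts. They run from 250 bases before to 50 bases after the RefSeq start, which can differ from that of the annotation used for distances, at chr19:41933265-41933564 on the minus strand for Exosc1, chr7:25658903-25659202 on the plus strand for Exosc5, chr9:123112981-123113280 on the plus strand for Exosc7 and chr3:54735315-54735614 on the minus strand for Exosc8. Capitals mark matches on either strand to the CCAAT box, the GC box GGGCGG, the TATA motif TATAAA, the cAMP response element TGACGTCA, the ETS motif GGAAGT or the E-box CACGTG, overlapping matches included.
Exosc1: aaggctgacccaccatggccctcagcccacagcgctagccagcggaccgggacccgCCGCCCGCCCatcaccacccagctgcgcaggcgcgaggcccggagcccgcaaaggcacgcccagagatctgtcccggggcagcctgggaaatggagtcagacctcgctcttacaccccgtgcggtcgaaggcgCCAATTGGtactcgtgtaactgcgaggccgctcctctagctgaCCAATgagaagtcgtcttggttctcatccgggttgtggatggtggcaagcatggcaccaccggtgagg
Exosc5: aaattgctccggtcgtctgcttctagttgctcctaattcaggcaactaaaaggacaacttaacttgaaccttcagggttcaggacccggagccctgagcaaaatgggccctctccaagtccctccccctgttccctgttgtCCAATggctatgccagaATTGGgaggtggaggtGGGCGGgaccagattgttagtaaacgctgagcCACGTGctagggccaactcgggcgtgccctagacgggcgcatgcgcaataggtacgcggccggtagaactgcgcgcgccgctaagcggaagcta
Exosc7: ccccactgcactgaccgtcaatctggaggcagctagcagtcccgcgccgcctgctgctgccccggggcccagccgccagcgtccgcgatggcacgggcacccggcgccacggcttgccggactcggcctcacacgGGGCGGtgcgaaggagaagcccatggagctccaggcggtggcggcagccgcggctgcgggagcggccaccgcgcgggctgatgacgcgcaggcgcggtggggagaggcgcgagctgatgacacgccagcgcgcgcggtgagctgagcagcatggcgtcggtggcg
Exosc8: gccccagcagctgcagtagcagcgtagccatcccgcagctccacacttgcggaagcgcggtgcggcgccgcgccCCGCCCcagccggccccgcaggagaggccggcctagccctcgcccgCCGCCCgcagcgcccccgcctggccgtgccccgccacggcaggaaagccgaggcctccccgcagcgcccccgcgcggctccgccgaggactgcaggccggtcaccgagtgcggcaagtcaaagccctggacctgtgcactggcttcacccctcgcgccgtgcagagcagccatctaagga
None of these 4 windows held TATAAA, which 13.6% of 32851 RefSeq windows of 300 bases held. GGGCGG was matched in all 4, against 35.7% of all windows. These 4 were picked by their levels. Among the matched genes not printed, GGGCGG had 1 match for Exosc3, 1 in the upstream window of Exosc10, and 0 for Exosc2 and Exosc6. CCAAT was matched 3 times for Exosc1, where 2 of the matches overlap on opposite strands at 61 and 58 bases before the start, and 2 times for Exosc5, against 37.4% of windows with at least 1 match. Exosc5 alone of the 4 held CACGTG, which 7.2% of windows held. The GC content was 65.7% for Exosc1, 57.3% for Exosc5, 75.3% for Exosc7 and 75.7% for Exosc8, and the median window had 52.7%. For the matched genes not printed it was 48.0% (Exosc2), 54.0% (Exosc3), 57.7% (Exosc6), and 53.0% and 70.0% (Exosc10). These matches are descriptions of the windows and not sites of binding.

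Exosc1 had normalized counts of 161, 156 and 148 (WT), 5.67, 134 and 77.3 (Het) and 17.2, 15.5 and 13.4 (KO). The WT animals were close to each other, as were the KO animals, with no overlap between these genotypes. The Het animals were spread over both levels, with Het replicate 2 just under WT, Het replicate 3 between the levels and Het replicate 1 below all KO animals, at 6 reads. The mean was 155 ± 6.71 in WT and 15.4 ± 1.89 in KO (SD, n = 3 each), a 10.1-fold difference and a log2 fold change of −3.26 on the log2(normalized count + 1) scale, the 25th most negative of 14223 genes. This is the value that led to the choice of the complex and is not tested. Without WT replicate 1 it was −3.23.

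**Figure D1:**
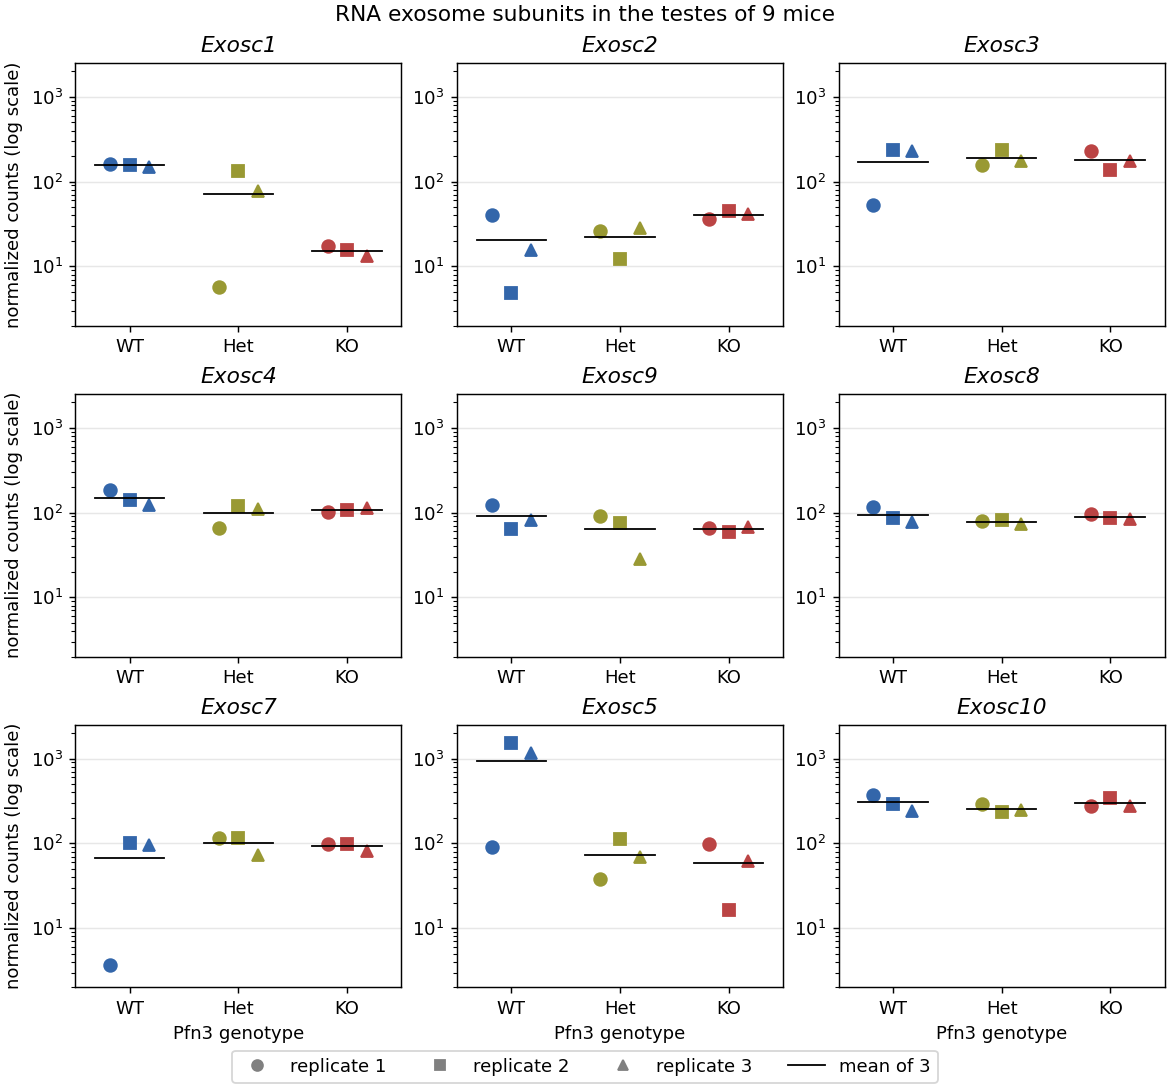
Normalized counts (log axis) of the 9 RNA exosome subunits analysed, by Pfn3 genotype, with 1 symbol per animal (shape gives the replicate number) and a line at the mean of 3 animals. Exosc1 has 3 KO animals at 13.4 to 17.2 and 3 WT animals at 148 to 161, Exosc5 has WT replicates 2 and 3 above all others, Exosc7 has WT replicate 1 far below all others, and Exosc8 and Exosc10 are nearly level.

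For the Het animals, which were not used to choose Exosc1, the level of Exosc1 differed from WT by −1.92 on the log2 scale (standard error, SE, 1.09, limma adjusted p = 0.779). The comparison uses the same WT animals as KO against WT. Each Het animal lay below each WT animal, but the spread among the Het animals was as wide as the difference, with a 95% interval from −4.57 to 0.74. In KO against Het the log2 fold change was −1.34 (SE 1.09, limma adjusted p = 0.973), and the animals overlapped through Het replicate 1. The KO and WT levels led to the choice of Exosc1, so neither p-value stands apart from that choice. Without that animal, the Het against WT value was −0.60 and the KO against Het value was −2.66, and neither passed the test.

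Beside Exosc1, subunits of the complex lay on both sides of their WT level in KO animals. Of the 8 other subunits analysed, all were tested between KO and WT, 3 were higher and 5 were lower, and 0 were called by limma (adjusted p under 0.05 with a log2 difference beyond 1.5, up or down), where 0.0352% of 14223 genes were called. At an unadjusted p under 0.05 there was 1 of the 8 (Exosc5), against 8.07% of all genes, and the DESeq2 Wald test on recovered reads called the same 1, against 0.703% of all genes, while edgeR called 0. The median log2 fold change of the 8 was −0.03, and over all genes tested it was 0.02. Without WT replicate 1 the median of the 8 was −0.13. In 1 of the 8 (Exosc4) the values of KO and WT animals were separate, which was so for 19.9% of all genes.

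**Figure D2:**
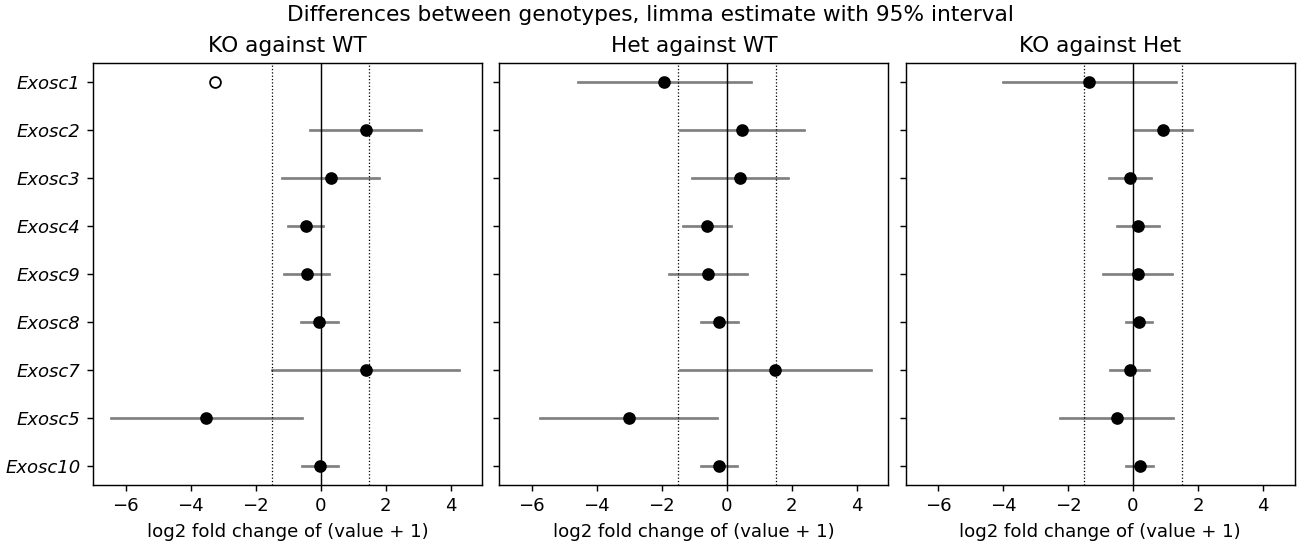
Log2 fold changes of (normalized count + 1) for each subunit in 3 comparisons of genotypes, from limma, with 95% intervals as grey lines, and dotted lines at the fold cutoff of 1.5. The open circle is Exosc1 in KO against WT, −3.26, shown without an interval because it led to the choice of the genes; only Exosc5 has an interval clear of 0 against WT, from −6.45 to −0.58 in KO and from −5.74 to −0.30 in Het.

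Of the cap, EXOSC2 and EXOSC3 bind RNA beside EXOSC1. Exosc2 (ENSMUSG00000039356, chromosome 2 from 31670715 to 31681349) had normalized counts of 40.9, 4.82 and 15.4 (WT), 26.5, 12.1 and 28.6 (Het) and 36.1, 44.5 and 42.0 (KO). These rest on 5 to 47 reads per animal. KO animals lay above all Het animals and above WT replicates 2 and 3, but WT replicate 1 lay among them. The log2 fold change was 1.39 in KO against WT (SE 0.70, limma adjusted p = 0.616), with an interval from −0.31 to 3.10, and it was 2.09 without WT replicate 1 (limma adjusted p = 0.433) and 0.67 without WT replicate 2. In KO against Het it was 0.92 (SE 0.37, limma adjusted p = 0.973).

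Exosc3 (ENSMUSG00000028322, chromosome 4 from 45316613 to 45342732) had normalized counts of 53.2, 234 and 230 (WT), 158, 237 and 176 (Het) and 233, 135 and 175 (KO). Only WT replicate 1 was far from the rest, and the other 8 animals shared 1 range. The log2 fold change between KO and WT was 0.31 (SE 0.61, limma adjusted p = 0.844) and turned to −0.39 without WT replicate 1 (limma adjusted p = 0.642). The same turn was seen in Het against WT, from 0.39 to −0.31. Neither partner of EXOSC1 in the cap thus had a KO level below all WT animals.

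In the ring, EXOSC4 pairs with EXOSC9, EXOSC8 with EXOSC5, and EXOSC7 with EXOSC6. Exosc4 (ENSMUSG00000034259, chromosome 15 from 76327397 to 76330677) had normalized counts of 183, 140 and 124 (WT), 66.1, 120 and 111 (Het) and 100, 106 and 114 (KO). All 6 Het and KO animals lay below the WT animals. The difference was small next to that of Exosc1, with a log2 fold change of −0.45 in KO (SE 0.22, interval −0.995 to 0.09, limma adjusted p = 0.615) and −0.61 in Het (SE 0.31, limma adjusted p = 0.779). Without WT replicate 1 the KO value was −0.30, and without Het replicate 1 the Het value was −0.34. Its partner Exosc9 (ENSMUSG00000027714, chromosome 3 from 36552606 to 36565727) had normalized counts of 123, 64.6 and 82.1 (WT), 89.8, 75.4 and 28.6 (Het) and 66.1, 59.0 and 67.9 (KO). WT and KO animals overlapped, and the log2 fold change in KO was −0.43 (SE 0.29, interval −1.12 to 0.27, limma adjusted p = 0.643), which became −0.18 without WT replicate 1.

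Exosc8 (ENSMUSG00000027752, chromosome 3 from 54728678 to 54735393) was the steadiest subunit, with normalized counts of 116, 86.8 and 76.3 (WT), 78.4, 81.0 and 74.1 (Het) and 95.3, 87.1 and 84.9 (KO). Its log2 fold change between KO and WT was −0.04 (SE 0.23), and the interval from −0.61 to 0.52 lies inside the fold cutoff. Without WT replicate 1 the value was 0.13. KO animals lay above all Het animals, by 0.19 on the log2 scale (SE 0.16, limma adjusted p = 0.973).

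Exosc7 (ENSMUSG00000025785, chromosome 9 from 123113215 to 123136129) had normalized counts of 3.71, 101 and 94.6 (WT), 117, 115 and 73.0 (Het) and 97.9, 99.6 and 81.3 (KO). WT replicate 1 was at 3 reads, the limit of detection, while the other 8 animals lay within 73.0 to 117. The log2 fold change between KO and WT was 1.38 (SE 1.19, limma adjusted p = 0.668), and it turned to −0.08 without WT replicate 1 (interval −0.55 to 0.39, limma adjusted p = 0.889). In Het against WT it was 1.49 with that animal and 0.02 without it. Exosc7 is 1 of the 695 genes in which WT replicate 1 lay alone below the rest. Its ring partner, Exosc6, was not analysed here. The annotation places Exosc6 (chromosome 8 from 111056339 to 111057664) whole inside the Aars gene on the same strand, and both end at the same base. Aars, an alanyl-tRNA synthetase, had 380 to 509 normalized counts over the 9 animals.

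Exosc5 (ENSMUSG00000061286, chromosome 7 from 25659164 to 25671368) differed most between animals. It had normalized counts of 90.4, 1547 and 1151 (WT), 37.8, 112 and 68.8 (Het) and 97.1, 16.4 and 62.6 (KO). WT replicates 2 and 3 lay at least 10.2-fold above every other animal on (normalized count + 1), whereas WT replicate 1 lay among the Het and KO animals. The log2 fold change was −3.52 in KO against WT (SE 1.21, limma adjusted p = 0.610) and −3.02 in Het against WT (SE 1.12, limma adjusted p = 0.779). The DESeq2 Wald test called Exosc5 in both comparisons (adjusted p = 0.00736 and 0.0307), which share the WT animals, and edgeR called it in neither. Without WT replicate 1 the values were −4.81 and −4.31, with limma adjusted p = 0.170 and 0.185. Between KO and Het the difference was −0.50 (SE 0.72, limma adjusted p = 0.973). Of the 14865 genes, 7 including Exosc5 had this split, with WT replicates 2 and 3 over 4-fold above the other 7 animals. The 2609 genes with a gap over 4-fold fell into 323 splits. Its ring partner Exosc8 was nearly level over the same animals, and the correlation of the pair was r = −0.11 over the 9 animals, given as a description.

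Exosc10 (ENSMUSG00000017264, chromosome 4 from 148558429 to 148582401), the nuclear nuclease of the complex, had normalized counts of 375, 295 and 244 (WT), 291, 235 and 246 (Het) and 277, 341 and 275 (KO). All 3 genotypes overlapped. The log2 fold change was −0.02 in KO against WT (SE 0.23, limma adjusted p = 0.980), with an interval from −0.57 to 0.53, and it was 0.14 without WT replicate 1.

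The sum over the 7 subunits other than Exosc1 and Exosc5 had a mean of 896 ± 30.5 normalized counts for WT, 813 ± 70.8 for Het and 873 ± 32.6 for KO animals (SD, n = 3 per genotype). With Exosc5, which was left out of that sum because WT replicates 2 and 3 dominate it, the means were 1826 ± 763 for WT, 886 ± 93.2 for Het and 932 ± 62.1 for KO. Set against the sum of the 7, the level of Exosc1 equalled 16.9% to 18% (WT), 0.686%, 15.3% and 10.5% (Het) and 1.59% to 1.90% (KO). These percentages serve to compare animals, not genes, and their KO against WT difference follows from the choice of Exosc1. The sum of the 7 overlapped between KO and WT animals, and so did the sum with Exosc5.

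Of the 8 subunits other than Exosc1, Exosc5 and Exosc7 had a highest level over 10-fold above the lowest, on (normalized count + 1). This range over the 9 animals was reached by 19.5% of 14865 genes. Exosc1 reached it too, but it was chosen for a KO level below WT, so its range is not set against that share. The ratio of highest to lowest was 88.8 for Exosc5, 25.1 for Exosc7, 24.3 for Exosc1, 7.81 for Exosc2 and 1.56 to 4.40 for the other 5, and the median gene had 2.80. Within a genotype, WT animals spanned over 10-fold for Exosc5 (16.9) and Exosc7 (21.7), and Het animals for Exosc1 (20.3), where 10.6% of genes did so in WT and 9.47% in Het. No subunit spanned over 10-fold among the KO animals, in which 6.26% of genes did.

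**Figure D3:**
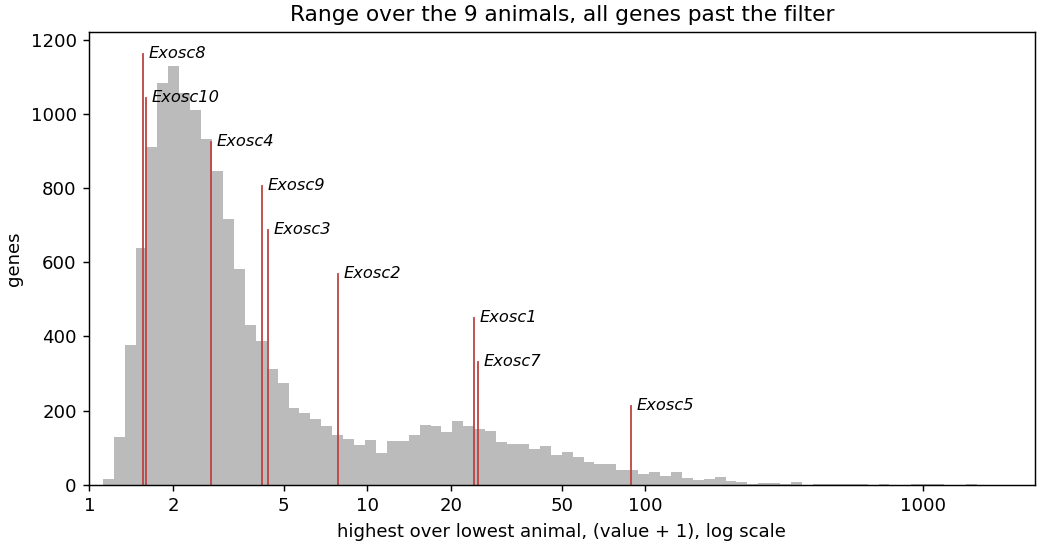
Number of genes by the ratio of the highest to the lowest of the 9 animals, on (normalized count + 1) and a log axis, for 14865 genes, with the 9 subunits marked by red lines. Most genes lie near the median of 2.80, a second and lower mound lies above 10, and Exosc1 (24.3), Exosc7 (25.1) and Exosc5 (88.8) fall in that mound while Exosc8 (1.56) and Exosc10 (1.60) lie at the lower end.

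The wide-ranging subunits did not share their split of the animals. For Exosc1 the widest gap between neighbouring animals was 4.30-fold, and it set the 3 WT animals and Het replicates 2 and 3 above Het replicate 1 and the 3 KO animals. The 2609 genes with a gap over 4-fold (17.6% of 14865) fell into 323 splits. Of these genes Exosc1 was the only 1 with its split, whose KO and WT side follows from the choice of the gene. For Exosc7 the gap was 15.7-fold and set WT replicate 1 apart, and for Exosc5 it was 10.2-fold. Among the 8 subunits other than Exosc1, the 28 pairwise Pearson correlations of log2(normalized count + 1) over the 9 animals had a median of −0.05 and ran from −0.80 to 0.90. With Exosc1 itself, Exosc4 had r = 0.80 (rank 433 of 14864 genes) and Exosc5 r = 0.68 (rank 1281). The other 6 ran from −0.57 to 0.14 (ranks 13076 to 6184). Exosc1 was chosen for its KO against WT difference, so its r values do not stand apart from that choice. These values describe 9 animals in 3 genotypes that share libraries across genes, and carry no test.

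By the same measure the genes most like Exosc1 over the 9 animals, of 14864 compared, were D17Wsu92e (r = 0.98), Ppm1g (0.96), Vps4a (0.96), Vwa3a (0.95) and Svop (0.95). D17Wsu92e, the most alike, had normalized counts of 537 to 588 (WT), 313, 548 and 472 (Het) and 380 to 417 (KO). The most opposite were Zfp518a (−0.98), Serinc1 (−0.97) and March7 (−0.97). Zfp518a had normalized counts of 73.3 to 78.0 (WT), 144, 71.7 and 91.0 (Het) and 110 to 117 (KO). In all 8 genes Het replicate 1 stood with or beyond the KO animals, and Het replicate 2 stood with or beyond the WT animals except in Svop, where it lay between. These positions follow from the way the 8 genes were picked, by their correlation with Exosc1 over the same animals.

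KO and WT animals overlapped in each of the genes analysed beside Exosc1. Pgam1, a glycolytic enzyme gene whose 3' end faces that of Exosc1 at a gap of 3631 bases, had normalized counts of 101 to 172 (WT), 105 to 131 (Het) and 85.9 to 136 (KO). Zdhhc16, which shares the start region printed above, was listed at 0 in 8 animals and at 1.93 in WT replicate 3. Mms19, of the cytosolic iron-sulfur assembly pathway, lay at 40.6 to 58.2 in WT and 37.7 to 50.9 in KO, with 140 in Het replicate 2. The KO mean minus the WT mean was −140 normalized counts for Exosc1, −17.6 for Pgam1, −0.64 for Zdhhc16 and −4.94 for Mms19.

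Beside Exosc5, Bckdha, a mitochondrial dehydrogenase gene that starts 183 bases away on the opposite strand, had 69.5 normalized counts in WT replicate 3 and 71.6 in KO replicate 2 and 0 to 1.72 in the other 7 animals. Tmem91, which overlaps the 3' part of Exosc5 by 2230 bases on the opposite strand, had 2.90 to 29.3. Neither was high or low in WT replicates 2 and 3 together. Zdhhc3, which starts 10 bases from Exosc7, had 49.5 normalized counts in WT replicate 1 and 19.8 to 75.5 over all 9 animals, with no low value where Exosc7 was at the limit of detection. The 3' end of Supt20 overlaps that of the steady Exosc8 by 89 bases. Supt20 had 1104 to 1381 in WT replicates 2 and 3, Het replicate 2 and KO replicate 1, and 89.1 to 210 in the other 5. It was 1 of 40 genes with this split and a gap over 4-fold. Whether the counting used the strand is not given in the sources used here, so reads of overlapping genes cannot be told apart.

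**Figure D4:**
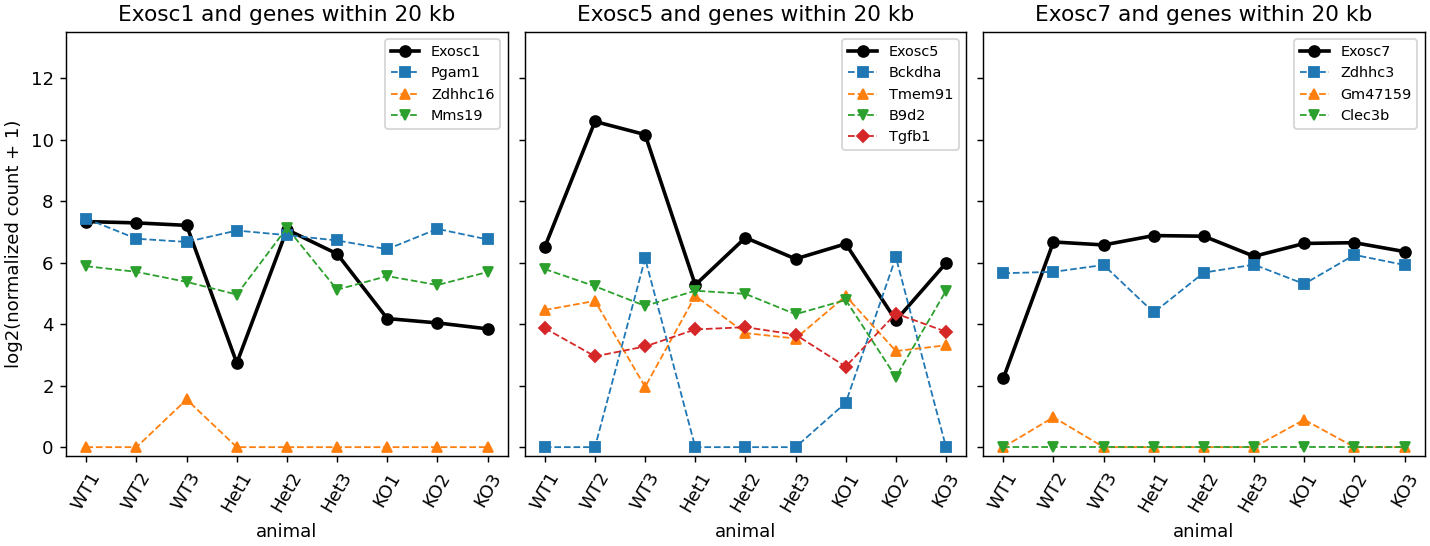
Levels as log2(normalized count + 1) in each of the 9 animals for Exosc1, Exosc5 and Exosc7 (black, solid) and the genes analysed within 20 kb of each (colours, dashed). The low Exosc1 of Het replicate 1 and the KO animals, the high Exosc5 of WT replicates 2 and 3 and the low Exosc7 of WT replicate 1 are not matched, animal for animal, in the genes beside them.

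Of 25 genes for exosome cofactors and associated nucleases, 24 were tested between KO and WT. By limma 0 were called, 10 were higher and 14 were lower, and DESeq2 and edgeR called 0, where 0.0352%, 0.703% and 0.0352% of all genes were called by the 3 tests. At an unadjusted p under 0.05 there were 3 of the 24, against 8.07% of all genes, and 4 of the 24 had KO and WT animals that did not overlap, against 19.9%. The median log2 fold change was −0.01. Dis3l, the catalytic subunit of the cytoplasmic exosome, had normalized counts of 80.5, 90.7 and 87.9 (WT), 46.3, 66.1 and 39.2 (Het) and 69.6, 31.0 and 45.6 (KO). All Het and KO animals lay below the WT animals, with log2 fold changes of −0.79 and −0.89 (limma adjusted p = 0.779 and 0.610). Papd7, a poly(A) polymerase of the TRAMP type, had 17.3 to 23.2 in WT, 27.9 to 44.4 in Het and 30.1 to 51.3 in KO, a log2 fold change of 0.90 in KO (SE 0.31, limma adjusted p = 0.610). Hbs1l, which in a short isoform links the SKI complex to the exosome, had 57.0, 475 and 104 in WT, 64.2, 536 and 599 in Het and 478, 484 and 584 in KO, a log2 fold change of 1.85 (SE 0.74, limma adjusted p = 0.610). Here WT replicate 2 lay with the KO animals. Rbm7, the RNA-binding subunit of NEXT, and Ncbp2, of the nuclear cap-binding complex, had overlapping KO and WT animals and log2 fold changes of 1.06 and −0.89 (limma adjusted p = 0.610 for both).

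Genes of the other decay routes, by decapping, digestion from the 5' end, deadenylation and nonsense-mediated decay, gave a like picture. All 38 were tested, 22 were higher and 16 lower in KO, 0 were called by limma, DESeq2 or edgeR (0.0352%, 0.703% and 0.0352% of all genes), and 4 had an unadjusted p under 0.05, against 8.07%. In 11 of the 38 the KO and WT animals were separate, against 19.9% of all genes. Their median log2 fold change was 0.13. The smallest p-values were those of Upf2, a factor of nonsense-mediated decay (−0.72, SE 0.26), Cnot6l, a deadenylase of the CCR4-NOT complex (0.52, SE 0.19), Dxo, a decapping exonuclease (−0.67, SE 0.26), Tob2, which binds that complex (0.66, SE 0.27), and Cnot2, one of its scaffold proteins (0.43, SE 0.19), each with limma adjusted p = 0.610. Dxo was at 0 in Het replicate 1 and at 75.6 to 175 in the other 8 animals. In Het against WT, 0 genes of either list were called by limma, DESeq2 or edgeR, where 0%, 0.218% and 0% of all genes were. There, 3 cofactor genes and 1 decay gene had an unadjusted p under 0.05, against 3.34% of all genes. In KO against Het, 0 were called by limma, DESeq2 or edgeR, where 0.0558%, 0.265% and 0.0488% of all genes were. Here 0 cofactor genes and 1 decay gene had an unadjusted p under 0.05, against 3.56%.

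Between Het and WT, 0 of the 8 subunits other than Exosc1 were called by limma, where 0% of 14216 genes were. An unadjusted p under 0.05 was found for 1 (Exosc5), against 3.34%. DESeq2 called 1 (Exosc5), against 0.218%, and edgeR 0, against 0%. The median over the 8 other than Exosc1 was −0.23, and over all genes 0.01. In 1 of the 8 (Exosc4) the Het and WT animals did not overlap, as in 13.3% of genes, and they did not overlap for Exosc1. Between KO and Het, 0 of the 8 were called by limma (0.0558% of 14343 genes called), DESeq2 (0.265%) or edgeR (0.0488%). Of these 8, 1 had an unadjusted p under 0.05 (Exosc2), against 3.56%. In 2 of the 8 (Exosc2 and Exosc8) the animals did not overlap, as in 10% of genes.

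Rows of snoRNA, scaRNA and snRNA genes, RNAs whose 3' ends the exosome trims, numbered 2777, of which 659 had any signal. In these libraries of polyadenylated ends 27 passed the filter between KO and WT, 11 higher and 16 lower, with a median log2 fold change of −0.10. By limma, DESeq2 and edgeR 0 were called (0.0352%, 0.703% and 0.0352% of all genes), and 1 had an unadjusted p under 0.05, against 8.07%.

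Marker lists of haploid germ cells had lower levels in KO than in WT animals, without overlap. The 5 round spermatid markers, all analysed, summed to 3677 to 4494 normalized counts (WT), 3213 to 4303 (Het) and 2245 to 3163 (KO), and the 4 elongating spermatid markers to 233289 to 249362, 179063 to 214894 and 123388 to 199672. On the mean of log2(normalized count + 1), the KO animals were under the WT animals in both lists, and the Het animals also in the elongating list. In the other 7 lists (Leydig, Sertoli, spermatogonia, spermatocyte, macrophage, erythrocyte and epididymis) KO and WT animals overlapped. Among all single genes tested, 19.9% had KO and WT animals that did not overlap, and the lists themselves were not tested. The part of cell composition in the Exosc1 level was not tested, and in bulk testis fewer cells of a type and less RNA per cell cannot be told apart.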

How the data were processed

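Testis RNA of 9 mice was analysed. Per the submitters' notes and the methods, the authors trimmed reads with Trim Galore 0.4.5, used HISAT2 2.1 for alignment to GRCm38 and StringTie 1.3.3 for assembly and gene counts, removed pseudogenes, and deposited a signal value per gene and animal, which is the read count divided by a DESeq2 size factor. The unit was read from the values, since 100% of nonzero values in each animal were whole multiples of 1 step (tolerance 0.001 reads). Each row carries 1 Ensembl gene, and the 9 subunits analysed are rows of the merged assembly. Columns of fitted comparisons were not part of the table.

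Groups came from the sample titles. Genes that reached a value of 10 in 3 or more of the animals compared were tested with limma 3.58.1 (eBayes with a trend, log2(value + 1)) in R 4.3.3, with only the 2 genotypes compared in a fit and Benjamini-Hochberg adjustment over all genes tested. A call needed an adjusted p under 0.05 with a log2 difference beyond 1.5, up or down. DESeq2 1.42.0 and edgeR 4.0.16 were run on the recovered reads. All 3 were tested on simulated data. The added 1 shrinks the fold of low genes. The members and gene lists were chosen with earlier results of these data known. Named were all subunits, the genes within 20 kb of Exosc1, up to 5 genes of each list with the smallest p in KO against WT, and the 5 genes most like and 3 most unlike Exosc1. The genes named beside other subunits, the ranges, the gaps between animals and the promoter letters were chosen after values were seen. Replicates of a genotype differed by more than counting noise (over 2 Poisson standard deviations in 35.4% to 70.6% of genes with a mean of at least 50 reads). The replicates are labelled as 3 samples of a genotype, so p-values measure the spread between these samples. The intervals given with log2 fold changes come from the limma fits, so they too measure the spread between these samples. The limit of detection is set in reads and covers counting error only. Figures were drawn with matplotlib 3.10.9.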

Additional observations from a re-analysis of the deposited data

How the results depend on the processing

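Over 17 alternatives in each comparison, 0 subunits other than Exosc1, 0 cofactor genes and 0 decay genes were called, with 1 exception. The DESeq2 Wald test called 1 subunit (Exosc5) in KO against WT and 1 (Exosc5) in Het against WT. The share of all genes called is not given for each alternative, so these counts are not read as a result about the lists. The median log2 fold change of the 8 subunits other than Exosc1 in KO against WT, −0.03, was −0.23 when each gene needed at least 10 normalized counts in all animals, which left 6 subunits, and ran from −0.17 to 0.012 when each animal was left out in turn. In Het against WT, where it was −0.23, it ran from −0.37 to −0.14 with an animal left out, and in KO against Het, where it was 0.15, from 0.01 to 0.18. The log2 fold change of Exosc1 in KO against WT ran from −3.34 to −2.98 over its 16 alternatives.

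Same-numbered animals of different genotypes did not deviate together (Pearson r from −0.14 to 0.19 over the 9 pairs). This check cannot tell whether the numbers pair the animals, because it rests on deviations from means of 3 animals. With the replicate number as a block, the count of all genes called went from 5 to 0 in KO against WT, stayed at 0 in Het against WT and went from 8 to 0 in KO against Het, and 0 subunits other than Exosc1 were called with the block in any comparison. Depth limits Exosc2 most, with 5 to 47 reads per animal, and the lowest animals of Exosc1 (6 reads) and Exosc7 (3 reads). Of 426 single-gene values under an alternative, 418 kept their side of the threshold. The others were Exosc5 by DESeq2 (2 values) and Exosc1 in KO against WT (6 values), which is not used as a test. Directions turned where 1 animal was left out for Exosc7 and Exosc3 in KO against WT and Exosc3 in Het against WT (without WT replicate 1), and for Exosc2 in Het against WT, from 0.47 to −0.25 without WT replicate 2. Other turns were of differences within 0.50 of 0.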

Other observations

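The split that Exosc5 showed was shared by few genes. In 7 of 14865 genes WT replicates 2 and 3 lay over 4-fold above the other 7 animals, and besides Exosc5 these were Dvl1, Fam134a, Kcne3, Dynll2, Pes1 and Vps11, named here after their values were seen. Dvl1, of the Wnt pathway, had 495 and 422 normalized counts in WT replicates 2 and 3 and 3.78 to 15.5 in the others. Dynll2, a dynein light chain, had 5010 and 5620 against 386 to 567. Pes1, a factor of ribosome biogenesis, had 257 and 183 against 4.72 to 24.2.

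Among genes beside the subunits, Gpaa1, which attaches GPI anchors and lies 553 bases downstream of Exosc4, had 84.9 to 132 normalized counts in WT replicates 2 and 3, Het replicates 2 and 3 and KO replicates 1 and 3, and 1.89 to 13.6 in the other 3 animals. Gpaa1 was 1 of 50 genes with this split and a gap over 4-fold. Exosc4 itself ran from 66.1 to 183 with no such gap. Trmt10b, whose 3' end lies 482 bases from that of Exosc3, had 79.2 in WT replicate 1, where Exosc3 was lowest, and 11.3 to 27.0 in the others.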
